A study of Homo sapiens with 6 samples.

Results

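The zinc finger genes of human chromosome 19 are the 247 genes, of 56303 in the count table, whose symbol is ZNF followed by a number and at most 1 letter from A to D and whose listed exons all lie on chromosome 19. No expression value entered the rule for choosing these genes, which was set with earlier results of these data known. Their RNA was measured in SW480 cells, an established line from a human colorectal adenocarcinoma, in a study of MORC2 in colon cancer. The control group, shCtrl, carried a lentiviral nonsilencing hairpin and is labelled WT. The other group, shMORC2, carried a lentiviral hairpin against MORC2 and is labelled MORC2 knockdown. Both groups had 3 libraries, each from polyadenylated RNA of cells selected with puromycin. The study's methods call such lines stable and clonal. Neither they nor the labels say how many hairpins or clones a group held. An effect of the knockdown and a difference between the lines themselves therefore cannot be told apart. The study describes the replicates as independent experiments, without saying whether they were separate cultures or infections of the line, so p-values measure only the spread between these libraries.

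C2H2 zinc finger proteins bind DNA through tandem fingers, each of which reads a few bases, and chromosome 19 carries the densest arrays of their genes in the human genome. Many also have a KRAB box, which recruits the corepressor TRIM28 and, through it, the histone methyltransferase SETDB1 and the heterochromatin protein HP1, and many of these proteins are known for silencing transposable elements. MORC2 is a nuclear ATPase that works with the HUSH complex, and this machinery has been linked to histone H3 lysine 9 methylation over the zinc finger genes themselves.

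Of the 247 members, 236 lay in 9 position clusters, defined as runs of at least 5 members with gaps of at most 1 Mb, and 11 lay outside them. A protein could be read from the GENCODE v44 canonical transcript for 243 members. The predicted proteins held a median of 12 C2H2 fingers, from 1 in ZNF428 to 36 in ZNF208. A KRAB box, called where at least 6 of 10 conserved residues matched, was found in 206 of the 243, or 84.8%. A member given as without a KRAB box is one whose canonical transcript fell short of this match. Such a member may hold a box that was missed here. A RefSeq promoter (GRCh38.p14, 250 bases before to 50 after the start) was found for 213 members.

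The promoters of the adjacent pair ZNF530 and ZNF134, which both rose, and of ZNF296 and ZNF460, which both fell, are shown because, among the members named for their fold change, these 4 had the largest rises and falls with an entry in the promoter table. ZNF781 and ZNF610 had none. ZNF460 had 2 entries, of which only the one with the lowest start was used. Only bases before the first listed exon are printed, 5′ to 3′ on the gene's strand, and capitals mark CpG dinucleotides.
ZNF530, chr19:57599635-57599884, plus strand: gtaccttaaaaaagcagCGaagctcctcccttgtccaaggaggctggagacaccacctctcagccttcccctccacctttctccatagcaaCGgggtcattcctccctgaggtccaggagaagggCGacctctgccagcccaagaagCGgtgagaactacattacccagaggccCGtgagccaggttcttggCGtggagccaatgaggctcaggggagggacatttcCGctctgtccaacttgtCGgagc
ZNF134, chr19:57613992-57614232, plus strand: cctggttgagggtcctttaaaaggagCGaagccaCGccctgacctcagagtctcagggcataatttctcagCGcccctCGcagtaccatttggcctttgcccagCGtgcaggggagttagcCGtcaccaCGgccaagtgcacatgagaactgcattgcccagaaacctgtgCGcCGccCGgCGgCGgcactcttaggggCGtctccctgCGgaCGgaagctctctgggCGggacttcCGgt
ZNF296, chr19:45076589-45076728, minus strand: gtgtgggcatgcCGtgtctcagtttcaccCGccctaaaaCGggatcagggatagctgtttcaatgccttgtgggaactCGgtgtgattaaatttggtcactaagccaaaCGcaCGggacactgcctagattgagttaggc
ZNF460, chr19:57279732-57279981, plus strand: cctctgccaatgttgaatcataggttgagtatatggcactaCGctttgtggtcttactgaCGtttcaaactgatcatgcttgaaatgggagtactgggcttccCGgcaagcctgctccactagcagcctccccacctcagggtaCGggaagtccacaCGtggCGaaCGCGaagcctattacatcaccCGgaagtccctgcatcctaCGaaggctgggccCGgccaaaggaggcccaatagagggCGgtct

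Over the 300-base windows, ZNF530 held 12 CpG, ZNF134 21, ZNF296 29 and ZNF460 13. The median was 20 CpG over the 213 member promoters and 14 over all 35116 promoters of the table. Motifs were searched by their letters on both strands. GGAAGTG, an ETS-like motif, occurred in 21.6% of member promoters and 11.2% of all promoters. AAGATGGC, a YY1-like motif, occurred in 6.10% and 2.89%, ACTACAA, a ZNF143-like motif, in 5.63% and 2.77%, and GCGCATGC, an NRF1-like motif, in 3.76% and 3.05%. The ETS-like letters were in 2 of the 15 promoters of members that rose and 5 of the 22 of members that fell, against 36 of the 131 of tested members that were not called. The windows of ZNF530, ZNF134, ZNF296 and ZNF460 held none of these exact strings. Variants that differ from them by a base were not searched for, so the windows may hold related sites.

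Library totals ran from 42092664 to 43434425 counts, and mitochondrial genes took 7.04% to 8.90% of them. MORC2 (chromosome 22) stood at 46.1, 46.4 and 48.8 CPM (counts scaled to a common library size by TMM, the trimmed mean normalization of edgeR) in shCtrl and at 35.0, 29.3 and 27.2 CPM in shMORC2. Its log2 fold change was -0.63 (edgeR adjusted p 0.000216, SE 0.10), and replicate 1 kept the most MORC2 of the shMORC2 libraries. MORC2-AS1 shares exonic bases with MORC2 on the other strand. Of 10 colon epithelial markers 8 were tested and 2 were higher, or 3 higher and 1 lower with the replicate number as a block, which added CDH1 and KRT19, and the summed level of the 10 was 20139 to 26179 CPM in shCtrl and 19183 to 26070 CPM in shMORC2. Of 9 markers of other cells 5 were tested, with 2 higher and 1 lower (3 higher and 1 lower with the block, which added PECAM1), and the sum over the 9 was 59.9 to 66.9 CPM in shCtrl and 82.8 to 132.9 CPM in shMORC2. CD68, a macrophage and lysosome marker, rose from 34.1 ± 4.6 to 82.4 ± 28.6 CPM (SD, n = 3 each, log2 fold change 1.27, edgeR adjusted p 0.000296), VWF rose (log2 fold change 0.54, edgeR adjusted p 0.0238) and ALB fell (log2 fold change -2.23, edgeR adjusted p 8.27e-05), while the leukocyte markers PTPRC and CD3E had at most 6 counts in any library. The part of these differences in the results was not tested.

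Zinc finger genes of chromosome 19 were called in both directions, and a smaller share of them was called than of all genes. Of the 247 members, 8 had no count in any library, 47 had counts that did not pass the filter on low values, and 192 were tested. At an edgeR adjusted p under 0.05, 43 of the 192 were called, or 22.4%, against 39.5% of all 21005 genes tested. The 19 that rose were 9.90% of the tested members, against 19.9% of all genes, and the 24 that fell were 12.5%, against 19.6%. At a log2 fold change of at least 1 in size as well, 6 members were called (2 higher and 4 lower), or 3.13% against 7.75%. The 3 shMORC2 libraries lay apart from the 3 shCtrl libraries in 69 tested members, or 35.9% against 50.2%, with 32 higher and 37 lower. The shares are over members that passed the filter, which a gene high in 1 group alone can pass, and no test compared the members with other genes. With the replicate number as a block, 54 members were called (28.1%, against 49% of all genes), and these included all 43.

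Fold changes of the members were small and centred close to 0. The median log2 fold change was -0.04 over the 192 tested members, with quartiles of -0.24 and 0.21, and -0.01 over all genes tested. The median size was 0.22 for members and 0.31 for all genes. Summed over the 247 members, the level was 1450, 1462 and 1385 CPM in shCtrl and 1464, 1345 and 1312 CPM in shMORC2. In bulk libraries, fewer cells with a transcript and less of it per cell cannot be told apart. The summed levels of the groups overlapped, since shMORC2 replicate 1 was the highest of the 6 libraries. That library was also the highest of the shMORC2 libraries in 12 of the 24 members that fell and the lowest in 2 of the 19 that rose. Leaving it out gave 44 called members (22.6%, against 39.2% of all genes). Leaving out shMORC2 replicate 3 gave 27 (13.8%, against 29.0%), of which 11 were higher. Leaving out shCtrl replicate 2 or shCtrl replicate 3 gave 11 and 10 higher. Of the 43 calls, 22 (8 higher, 14 lower) held in all 6 fits that left out a library, and 0 changed sign.

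**Figure D1:**
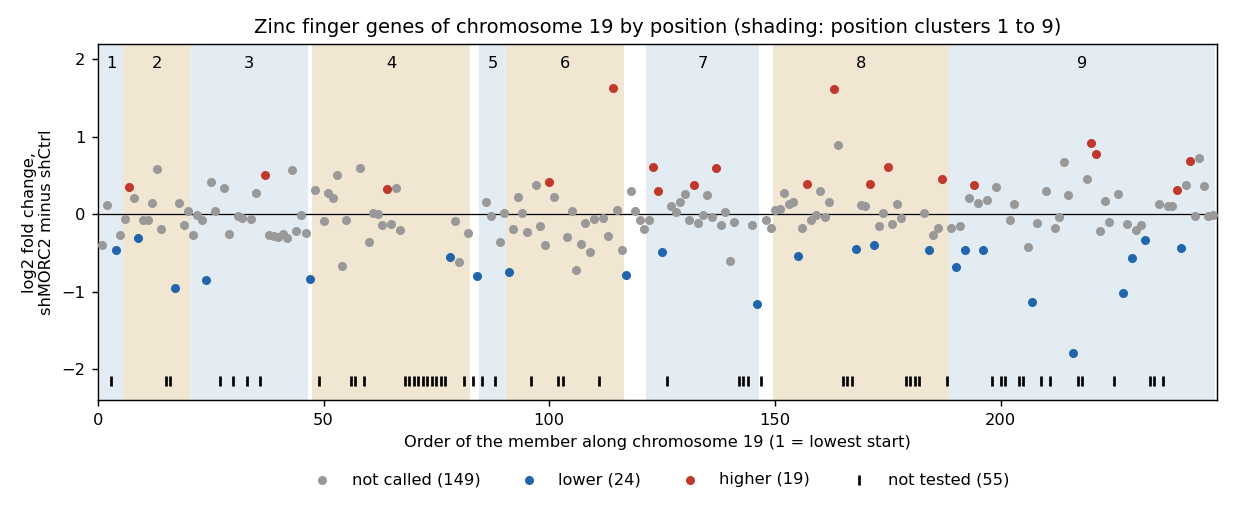
log2 fold change (shMORC2 minus shCtrl, vertical axis) of each tested member by its order along chromosome 19 (horizontal axis), with the 9 position clusters shaded and ticks at the bottom for the 55 members not tested. The 19 members that rose (red) and the 24 that fell (blue) are spread over the clusters, and ticks are dense in cluster 4.

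The members with the largest rises were ZNF781 and ZNF610. ZNF781 (chromosome 19, 37667751 to 37692322, minus strand, GRCh38) stood at 0.548, 0.520 and 0.656 CPM in the shCtrl libraries and at 1.67, 1.66 and 2.04 CPM in shMORC2. All 3 shMORC2 libraries lay above all 3 shCtrl libraries, and the log2 fold change was 1.64 (edgeR adjusted p 0.000181, SE 0.24), or 3.11-fold, at a mean of 50.5 counts. GENCODE v44 lists ZNF781 as a transcribed pseudogene, and its exons share bases with ZFP30. ZNF610 (52336245 to 52367778, plus strand), a KRAB protein with 8 fingers, stood at 1.21, 1.23 and 1.46 CPM in the shCtrl libraries and at 4.6, 3.41 and 3.97 CPM in shMORC2. Here too the groups lay apart, with a log2 fold change of 1.62 (edgeR adjusted p 2.42e-05, SE 0.19) and no exonic overlap with another gene.

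Neighbouring members ZNF530 (57599885 to 57612722) and ZNF134 (57614233 to 57624723), on the plus strand with the promoters printed above, both rose. Neither predicted protein met the match for a KRAB box. ZNF530, with 13 fingers, stood at 1.80, 1.37 and 1.09 CPM in the shCtrl libraries and at 2.41, 2.23 and 3.48 CPM in shMORC2, a log2 fold change of 0.92 (edgeR adjusted p 0.00725, SE 0.24). ZNF134, with 10 fingers, stood at 9.08, 10.1 and 9.0 CPM in the shCtrl libraries and at 16.7, 16.7 and 14.9 CPM in shMORC2, a log2 fold change of 0.78 (edgeR adjusted p 6.60e-05, SE 0.10). The groups lay apart for both genes, and the spread within a group was narrower for ZNF134.

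A further 4 members completed the 8 largest rises among called members with a mean of at least 50 counts. ZNF837, with 8 fingers and no KRAB box, went from 1.60 ± 0.33 to 2.59 ± 0.34 CPM (SD, n = 3 each). ZNF576, which has 4 fingers and overlaps SRRM5, stood at 6.94, 8.32 and 7.85 CPM in the shCtrl libraries and at 11.6, 11 and 12.6 CPM in shMORC2. ZNF320, a KRAB protein, stood at 13.7, 11.6 and 11.5 CPM against 20.1, 17.4 and 18.8 CPM. ZNF226, another KRAB protein with 17 fingers, stood at 8.19, 7.28 and 6.03 CPM against 11.7, 10.5 and 10.3 CPM. Their log2 fold changes were 0.69, 0.61, 0.61 and 0.60 in that order, with edgeR adjusted p of 0.0166, 0.000851, 0.000488 and 0.00229. The ZNF837 call was lost without shCtrl replicate 3 (edgeR adjusted p 0.0713) and without shMORC2 replicate 3 (edgeR adjusted p 0.0652). The other 9 members that rose and were not among the most abundant had log2 fold changes from 0.32 (ZNF544) to 0.51 (ZNF136).

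Among members that fell, ZNF296 and ZNF460 had the lowest fold changes at a mean of at least 50 counts. ZNF296 (45071500 to 45076588, minus strand), whose mouse homologue is known from pluripotent cells, stood at 4.70, 4.92 and 5.62 CPM in the shCtrl libraries and at 2.10, 2.45 and 2.30 CPM in shMORC2. No shMORC2 library reached the lowest shCtrl library, and the log2 fold change was -1.15 (edgeR adjusted p 7.34e-05, SE 0.15), or 2.22-fold lower. ZNF460 (57280051 to 57293569, plus strand), a KRAB protein with 11 fingers, stood at 2.28, 2.91 and 2.46 CPM against 1.26, 1.30 and 0.939 CPM. Its log2 fold change was -1.13 (edgeR adjusted p 0.000899, SE 0.21), and its exons overlap CTC-444N24.7 on the other strand.

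ZNF586 and ZNF121 fell by about as much. ZNF586, a KRAB protein, stood at 6.46, 5.75 and 5.06 CPM in the shCtrl libraries and at 3.65, 2.11 and 2.79 CPM in shMORC2, a log2 fold change of -1.01 (edgeR adjusted p 0.000912, SE 0.19). Its exons share bases with ZNF552 and ZNF587B, so its counts are uncertain. ZNF121, with 9 fingers and no KRAB box, was among the better expressed members, at 26.2, 29.0 and 25.5 CPM against 17.2, 12.6 and 12 CPM. Its log2 fold change was -0.95 (edgeR adjusted p 7.71e-05, SE 0.13), and shMORC2 replicate 1 was the highest of its group for both genes.

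The other 4 of the 8 lowest were ZNF441, ZNF333, ZNF507 and ZNF546. ZNF507, without a KRAB box, stood at 31.5, 26.6 and 29.3 CPM in the shCtrl libraries and at 21.2, 14.6 and 14.5 CPM in shMORC2 (log2 fold change -0.80, edgeR adjusted p 0.000467). ZNF333, a KRAB protein that overlaps ADGRE2 and ADGRE3 on the other strand, stood at 7.21, 9.74 and 7.78 CPM against 4.85, 4.49 and 4.51 CPM (log2 fold change -0.84, edgeR adjusted p 0.000389). The groups lay apart for both. ZNF441, a KRAB protein with 14 fingers, stood at 3.15, 3.07 and 2.53 CPM against 2.25, 1.68 and 0.939 CPM (log2 fold change -0.84, edgeR adjusted p 0.0188). ZNF546, a KRAB protein with 22 fingers, stood at 1.62, 1.61 and 1.43 CPM against 1.19, 0.889 and 0.611 CPM (log2 fold change -0.79, edgeR adjusted p 0.0287). The calls of ZNF441 and ZNF546 were lost on leaving out single libraries. ZNF441 had edgeR adjusted p of 0.0621, 0.0534 and 0.0705 without shCtrl replicate 2, shMORC2 replicate 2 and shMORC2 replicate 3. ZNF546 had 0.0595, 0.0800, 0.0756 and 0.119, as edgeR adjusted p, without shCtrl replicate 1, shCtrl replicate 2, shMORC2 replicate 2 and shMORC2 replicate 3. The lowest fold change of any tested member, picked out after the values were seen, was that of ZNF773, with a log2 fold change of -1.78 (edgeR adjusted p 0.0442, SE 0.65) at a mean of 11.2 counts and 0 counts in shMORC2 replicate 3. Another 12 members fell, with log2 fold changes from -0.31 (ZNF558) to -0.74 (ZNF565).

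**Figure D2:**
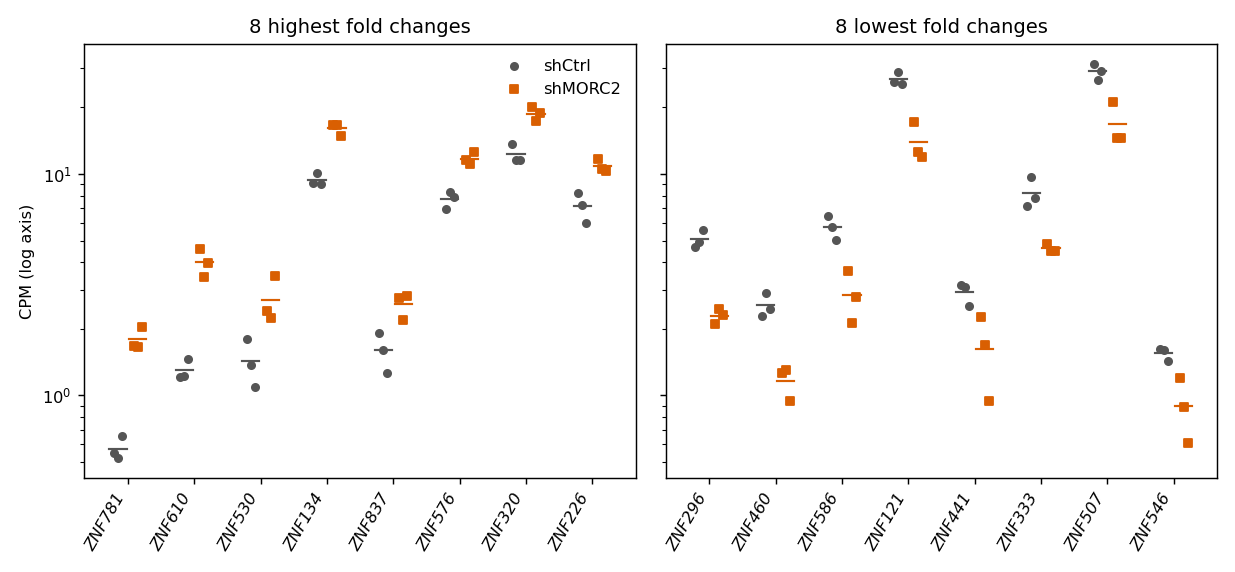
Level in CPM (counts scaled to a common library size, log axis) of the 8 members with the highest (left) and the 8 with the lowest (right) fold changes among called members with a mean of at least 50 counts, each point a library and each line a group mean. The 3 shMORC2 libraries (orange) lie on one side of the 3 shCtrl libraries (grey) in every gene plotted, which the rule for choosing them required.

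Most members were weakly expressed. Scaled by exon length and library total (RPKM), the tested members had a median of 0.99, against 2.63 for all genes tested. ZNF146, whose protein consists almost wholly of fingers, was the most abundant at 24.3 ± 4.06 RPKM in shCtrl and 21.2 ± 2.58 RPKM in shMORC2 (SD, n = 3 each). It was not called (log2 fold change -0.19, SE 0.11, edgeR adjusted p 0.173), but was with the replicate block (edgeR adjusted p 0.0134), and it shares exonic bases with ZNF565. ZNF787 followed, at 13 ± 1.12 RPKM against 9.40 ± 0.67 RPKM, and fell, with a log2 fold change of -0.46 (edgeR adjusted p 0.00145, SE 0.09). ZNF428, the member with 1 finger, was at 9.68 ± 1.01 RPKM against 11.9 ± 1.07 RPKM and was called higher (log2 fold change 0.30, edgeR adjusted p 0.0216). That call was lost on leaving out any of 4 libraries, namely shCtrl replicates 2 and 3 and shMORC2 replicates 1 and 3, with edgeR adjusted p from 0.0557 to 0.0888, and ZNF428 shares exonic bases with SRRM5.

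The neighbours ZNF580 and ZNF581, which share 407 exonic bases, were also among the 5 most abundant. ZNF580 was at 8.48 ± 0.23 RPKM in shCtrl and 11 ± 0.80 RPKM in shMORC2 and rose, with a log2 fold change of 0.38 (edgeR adjusted p 0.0029, SE 0.08). ZNF581 was at 9.58 ± 1.49 RPKM and 10.5 ± 0.39 RPKM, with groups that overlapped (log2 fold change 0.14, edgeR adjusted p 0.363). ZNF146 stood above the other 4 in both groups. ZNF787 was the next in shCtrl and the last of the 5 in shMORC2.

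The share called rose with the count behind a gene, among members as among all genes. At a mean under 50 counts 1 of 23 members was called (4.35%, against 19.8% of all genes at that level). From 50 to under 200 counts 15 of 69 were called (21.7%, against 35.5%), from 200 to under 500 counts 16 of 68 (23.5%, against 43.8%), and at 500 counts and over 11 of 32 (34.4%, against 49.9%). In all 4 ranges the members' share was smaller than that of all genes. ZNF genes of other chromosomes, chosen by the same rule on the symbol, had 227 tested of 264, of which 26 rose and 55 fell (35.7%). Their median log2 fold change was -0.09, and their median count was 449, against 209 for the tested members. In the same ranges of counts, from lowest to highest, 18.2%, 21.3%, 28.6% and 49.5% of them were called. From 50 to under 200 counts their share was thus close to that of the members. The 1276 tested genes of chromosome 19 that are no members had 39.6% called, 257 higher and 248 lower. No test was made of these differences.

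**Figure D3:**
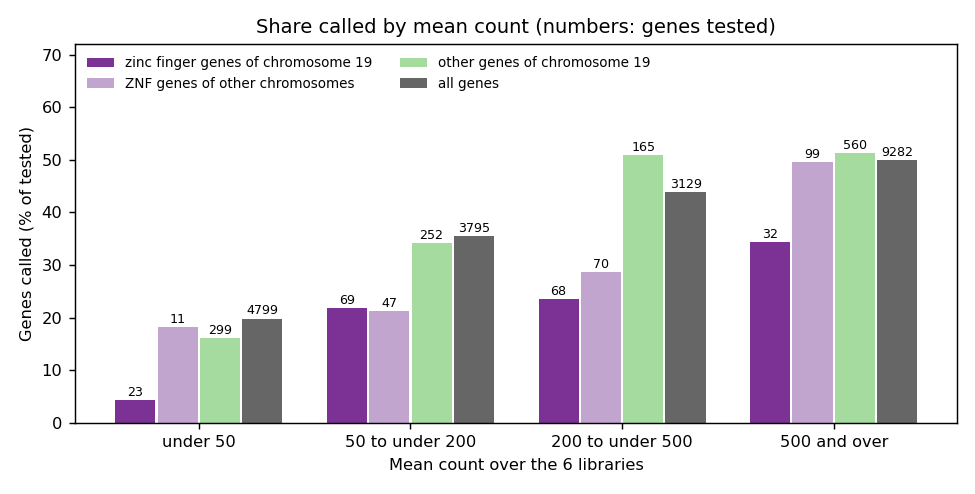
Share of tested genes called (edgeR adjusted p under 0.05, vertical axis, in percent) by mean count over the 6 libraries (horizontal axis) for the members, ZNF genes of other chromosomes, other genes of chromosome 19 and all genes, with the number tested above each bar. The members' bars run from 4.35% to 34.4% and those of all genes from 19.8% to 49.9%.

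By position, called members were found in 8 of the 9 clusters. Beside the counts below stand the 22.4% called of all 192 tested members and the 39.5% of all genes tested. The cluster with the most members, cluster 9 (ZNF628 to ZNF446, 55476332 to 58481230), had 59 members, of which 46 were tested, 5 rose and 9 fell, with a median log2 fold change of -0.01. Cluster 8 (ZNF175 to ZNF331, 51571298 to 53580269) had 39, with 31 tested, 5 higher and 4 lower and a median of 0.06. Cluster 7 (ZNF575 to ZNF296, 43525497 to 45076588) had 25, with 21 tested, 4 higher and 2 lower and a median of -0.01. The other clusters had 0 to 2 higher and 0 to 2 lower each.

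Cluster 4 (ZNF101 to ZNF254, 19668796 to 24129961), beside the centromere, had the smallest share of members tested. Only 20 of its 35 members were tested, or 57.1%, and 6 of the 8 members with no count in any library lay in it, namely ZNF14, ZNF626, ZNF257, ZNF676, ZNF729 and ZNF492. In the other 8 clusters 66.7% to 86.7% of members were tested. ZNF91, a KRAB protein with 31 fingers known for silencing SVA retrotransposons, had the lowest p of cluster 4. It stood at 14.5, 14.3 and 12.8 CPM in the shCtrl libraries and at 10.2, 10.8 and 7.42 CPM in shMORC2, with no overlap, and fell with a log2 fold change of -0.55 (edgeR adjusted p 0.00528, SE 0.13). The only other called member of cluster 4 was ZNF738, with a log2 fold change of 0.33.

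Clusters 2, 3 and 6 held 15, 26 and 26 members, with medians of -0.06, -0.06 and -0.13 on the log2 scale. Cluster 6 held ZNF781, the highest fold change, and cluster 2 held ZNF121. Cluster 1, with 5 members (ZNF554 to ZNF77), had the lowest median, -0.33 over 4 tested members. Its lead, ZNF57, a KRAB protein, stood at 6.07, 6.90 and 7.83 CPM in the shCtrl libraries and at 5.30, 4.78 and 5.10 CPM in shMORC2 and fell (log2 fold change -0.45, SE 0.13, edgeR adjusted p 0.0149), a call lost without shCtrl replicate 3 (edgeR adjusted p 0.0872) and without shMORC2 replicate 2 (edgeR adjusted p 0.0605). In cluster 5, with 6 members, the lead ZNF30 was not called (log2 fold change -0.36, SE 0.16, edgeR adjusted p 0.0969), although its groups lay apart. All 3 called of the 11 members outside clusters fell, namely ZNF333, ZNF507 and ZNF546.

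**Figure D4:**
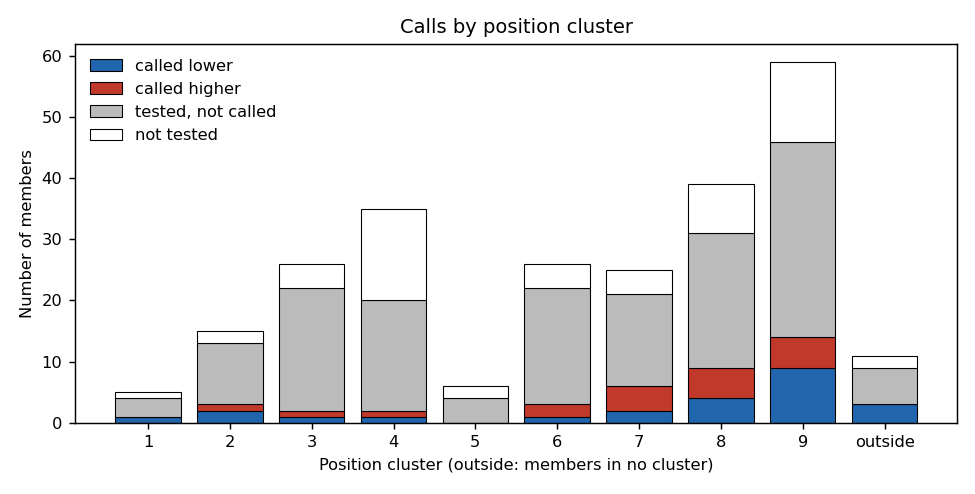
Number of members (vertical axis) in each position cluster (horizontal axis, 1 to 9 along the chromosome, and members outside), split into called lower (blue), called higher (red), tested and not called (grey) and not tested (white). Cluster 9 holds 14 of the 43 calls and 46 of the 192 tested members, and cluster 4 has 15 of 35 members not tested.

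Over 174 pairs of neighbouring tested members within a cluster, 86 had the same sign, or 49.4%, and Pearson's r of their log2 fold changes was 0.04. Over 20466 pairs of neighbouring tested genes of all kinds within 1 Mb, 57.5% had the same sign and r was 0.19. These are descriptions over pairs of genes measured in the same 6 libraries, and neighbours can share exonic bases. In 5 pairs both members were called. The direction was shared in ZNF576 with ZNF428 and in ZNF530 with ZNF134, and opposite in ZNF428 with ZNF283, ZNF611 with ZNF600 and ZNF544 with ZNF8. Cluster medians computed for each shMORC2 library against the shCtrl mean had SDs from 0.0024 to 0.20 over the 3 libraries, widest in cluster 4, where replicate 1 stood at 0.21, replicate 2 at -0.08 and replicate 3 at -0.17. The 221 tested genes inside the clusters that are no members had 55 higher and 22 lower (34.8% called, against 39.5% of all genes tested). Their median log2 fold change was 0.12, and their median count, 85.7, was lower than the members' 209.

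**Figure D5:**
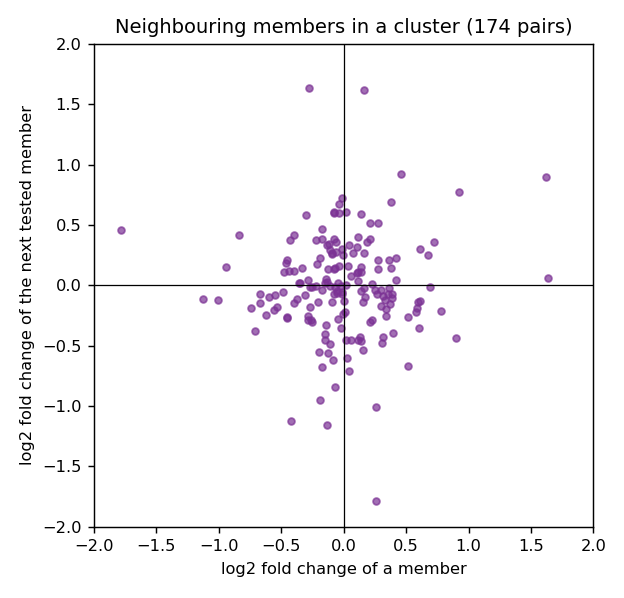
log2 fold change of each tested member (horizontal axis) against that of the next tested member of the same cluster (vertical axis), 174 pairs. Of these, 86 lie in the quadrants of equal sign.

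By protein, 11 of the 158 tested members with a KRAB box rose and 18 fell (18.4%), and of 32 without, 7 rose and 6 fell (40.6%), against 39.5% called of all genes tested. The difference between the 2 shares was not tested. The KRAB members were also less expressed, with median levels of 0.83 and 2.43 RPKM and median counts of 191 and 408, and its part in the shares called was not tested. Across tested members, Spearman's rho with the log2 fold change was -0.18 for the number of fingers (n = 190), -0.18 for the share of exonic 75-base windows found elsewhere on the chromosome (n = 192) and 0.04 for promoter CpG (n = 168), over genes measured in the same libraries. Members that rose had a median of 10.5 fingers and those that fell 12.

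Some members are near copies of each other, so reads may have been split between them. ZNF587 and ZNF417 shared 98.1% of their protein residues, ZNF585A and ZNF585B 94.5%, and ZNF98 and ZNF492 90.9%. ZNF417 fell (log2 fold change -0.33, SE 0.11, edgeR adjusted p 0.027), while ZNF587 had a log2 fold change of -0.14 (edgeR adjusted p 0.275, SE 0.10). ZNF585A and ZNF585B were not called, and ZNF98 and ZNF492 were not tested. Exonic bases were shared with another gene by 137 of the 247 members, on the same strand in 81 and on the opposite strand in 79.

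A list of corepressor and heterochromatin machinery held 32 genes, with KDM4 histone demethylases and other MORC genes among them. Of these 32, 31 were tested, 4 rose and 8 fell (38.7% called, about the 39.5% of all genes tested), with a median log2 fold change of -0.04. The corepressor TRIM28 was not called, at 143.6 ± 2.19 CPM in the control libraries and 142.2 ± 9.15 CPM in shMORC2 (SD, n = 3 each, log2 fold change -0.01, edgeR adjusted p 0.895). SETDB1, the methyltransferase, fell from 31.5 ± 2.14 to 24.8 ± 1.29 CPM (log2 fold change -0.34, SE 0.09, edgeR adjusted p 0.00625), and its partner ATF7IP fell by 0.41 on the log2 scale (edgeR adjusted p 0.000964). ATF7IP2, a relative of ATF7IP, rose by 0.54 on the log2 scale (edgeR adjusted p 0.00588). The HUSH subunit MPHOSPH8 fell by 0.24 on the log2 scale (edgeR adjusted p 0.0145), while the HUSH subunits FAM208A and PPHLN1 had log2 fold changes of -0.19 (edgeR adjusted p 0.199) and -0.04 (edgeR adjusted p 0.751).

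The HP1 genes CBX1 and CBX3 rose, with log2 fold changes of 0.33 and 0.38 (edgeR adjusted p 0.00388 and 0.00981). Chromatin remodellers CHD3, ATRX and SMARCAD1 fell, with log2 fold changes of -0.37, -0.37 and -0.50 (edgeR adjusted p 0.001, 0.0469 and 0.00537). Of the histone demethylases, KDM4A rose by 0.24 (edgeR adjusted p 0.0243) and KDM4C fell by 0.31 (edgeR adjusted p 0.006), both on the log2 scale. MORC2 itself is on the list. With the replicate block 8 of the 31 rose and 10 fell (49% of all genes were called in that fit). The block added HDAC1, HDAC2, UHRF1 and CHAF1A, which rose (edgeR adjusted p 0.0167, 0.0230, 0.00279 and 0.0004). It also added CBX5 (edgeR adjusted p 0.00722) and FAM208A (edgeR adjusted p 0.00941), which fell. A list of 18 zinc finger genes of chromosome 19 with other names held 9 tested genes. Of these 9, ZSCAN5A and ZBTB45 rose, with log2 fold changes of 0.43 and 0.35 (edgeR adjusted p 0.043 and 0.0203). That was 22.2% called, against 39.5% of all genes tested.

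The authors' splicing table listed 10 events in 8 members, of 1449 events in 1181 genes. They were 8 skipped exons, 1 pair of mutually exclusive exons and 1 retained intron. ZNF274, which is known to bring SETDB1 to the ends of zinc finger genes, had 2 of the skipped exons, and its gene count was not called (log2 fold change 0.10, edgeR adjusted p 0.326). ZNF226 had a skipped exon and the retained intron. The remaining events lay in ZNF227, ZNF266, ZNF430, ZNF480, ZNF708 and ZNF780A. The table does not name its groups, so no direction is given.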

How the data were processed

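Polyadenylated RNA of 3 shCtrl and 3 shMORC2 SW480 libraries was sequenced from stranded libraries with molecular identifiers. The authors deposited a table of raw counts by gene symbol, an RPKM table computed from them and rMATS splicing events, whose inclusion levels, differences and p-values were not used. The submitters' processing notes name Trimmomatic 0.36, STAR 2.5.3a, featureCounts of Subread 1.5.1, edgeR 3.12.1 and GRCh38. The annotation release, the strand setting and the treatment of identical identifiers are not given in the sources used here. Among counts from 1 to 10, 78.0% of the members' values and 68.8% of all values were even.

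The test of counts was edgeR 4.0.16 run in R 4.3.3 (its filterByExpr, TMM and quasi-likelihood steps, with the group as the only term, Benjamini-Hochberg over 21005 genes), and an adjusted p under 0.05 was called. Standard errors are the size of the log2 fold change divided by the square root of F. The edgeR test was tested on simulated data. Genes named are MORC2, the 8 highest and 8 lowest fold changes among called members of mean count 50 or over whose groups lay apart, the 5 highest RPKM, the lowest p of each cluster and called genes of the machinery list. Members and lists were chosen with earlier results of these data known. Proteins came from GENCODE 44 on GRCh38 and identities from BLAST+ 2.17.0. Exon overlaps came from the exon positions that the authors listed with the counts. Of the 247 members, 244 had a GENCODE entry of the same or an older symbol. Alternatives used DESeq2 1.42.0, limma 3.58.1 on log2(RPKM + 1) and log2(RPKM + 0.1), other filters, thresholds and library sizes, the replicate number as a block, and left-out libraries or members. Libraries of the same number deviated together from their group means (correlations of 0.215, 0.111 and 0.102 over 21005 genes). On these values alone, the replicate block treats the numbers as pairs, which the main fit and the other alternatives do not. Replicates of 1 group all differed beyond sampling noise (chi-square per degree of freedom 6.35 to 21.5).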

Additional observations from a re-analysis of the deposited data

How the results depend on the processing

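Counts of called members within 1.5 times the 43 above were given by DESeq2 (44 called, of which 43 shared), library totals without TMM, both other filters on low counts and leaving out near copies or members with repeated sequence, the last of which was chosen after seeing the data. The replicate block gave 54 called members (21 higher, 33 lower) and, among members whose fold change is given above, changed the call of ZNF146 and no other. Fewer were called by limma on log2(RPKM + 1), with 23 (9 higher, 14 lower), by limma on log2(RPKM + 0.1), with 24 (9 higher, 15 lower), at an adjusted p under 0.01, with 22 (8 higher, 14 lower), with a log2 fold change of at least 1 in size, with 6 (2 higher, 4 lower), and among the 78 tested members that share no exonic bases with another gene, with 20 (8 higher, 12 lower). The stricter thresholds and the smaller set lower the count by construction. For limma the cause was not tested. With the 2 pseudocounts limma called 12.4% and 12.9% of the members, against 27.9% and 27.8% of all genes. Leaving out each library in turn gave 27 to 44 called members, 10 to 18 of them higher and 16 to 31 lower. The share called was 13.8% to 22.6% of members, against 29.0% to 39.2% of all genes. The log2 fold change of MORC2 ran from -0.74 to -0.55. The median log2 fold change of the members ran from -0.076 to 0.017 over these fits and was above 0 without shCtrl replicate 2 (0.017), and the sign of the medians of clusters 2, 4, 5, 7, 8 and 9 also changed with a library left out (cluster 4, for example, from -0.08 to 0.08 without shMORC2 replicate 3). With gaps of at most 500 kb, 10 clusters formed, of which cluster 9 became a run of 16 members with a median of 0.03 and a run of 43 with -0.01, and the median of cluster 7 was 0.01. limma lost the calls of ZNF530, ZNF441, ZNF546, ZNF428 and ZNF91 with both pseudocounts (limma adjusted p from 0.0507 to 0.259). Neither MORC2 nor any member chosen by the naming rule changed sign under any alternative run. Groups of 3 libraries limit the precision, and members with few counts could have differed without being called.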
